A study of Oryza sativa with 6 samples.

Results

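L-type lateral roots were compared with nodal roots of rice in 4 of the 6 libraries of the series, 1 from each root type under control conditions and 1 from each after 7 days with 50 mM NaCl. A gene was a member of the comparison when its value differed at least 2-fold in the same direction under both treatments and reached at least 50 scaled fragments in the highest of the 4 libraries. Of 37942 gene models, 16135 reached that level, and 659 of them were higher and 506 lower in L-type roots under both treatments. The ratios that chose these genes are given as a description and are not used as a test of them.

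Plants carried the genotype labelled Mulai and grew at 30 °C by day and 25 °C by night, with 12 h of each and a humidity of 70% and 75%. The 4 groups are control nodal, salt nodal, control L-type and salt L-type roots, and S-type lateral roots gave 2 further libraries. With a single library in each group there are no replicates. The labels do not give the number of plants pooled, the stretch of root sampled, the hour of collection, or whether nodal and lateral roots were cut from shared plants.

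Nodal roots are the shoot-borne roots that make up the bulk of the rice root system. They are thick, with many vessels and a wide cortex. L-type laterals branch from them, grow long and branch again, while S-type laterals stay short and unbranched. Thickened vessel walls, root hairs, water channels and nutrient transporters are distributed unevenly among these root classes, and a root sample holds them in proportion to its tissues. In RNA from mixed root tissue, fewer cells of a type, less RNA per cell and a different stretch of root cannot be told apart.

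The 4 libraries held between 5620282 fragments in genes (control L-type) and 7908373 (salt nodal). Values below are the deposited fragment counts multiplied by 1 factor per library, called scaled fragments, and ratios are log2 of L-type over nodal after adding 1. The 95% intervals of ratios are exact conditional binomial intervals. They cover counting error only, since 1 library per group gives no other spread. Where fragments are not independent molecules, the intervals are too narrow. Levels of different genes are compared only as FPKM. The median ratio over all 16135 genes was -0.007 under control and 0.02 under salt. Of 8 listed markers of shoot and green tissue, which a root base could carry, 5 could be named. RBCS2, RBCS3 and PORB could not and were not examined. The 5 named ones summed to 36.4 FPKM in control nodal, 28.9 in control L-type, 8.67 in salt nodal and 8.30 in salt L-type roots. The shoot meristem gene OSH1 had 0 fragments in all 4 libraries. Of the 5, CAB2R stood apart, with 98.2 and 17.4 scaled fragments in control and salt nodal roots against 3.76 and 0 in L-type roots, while CAB1R had 127 and 30.7 against 192 and 54.3. The part of such RNA in the results below was not tested.

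Under control, 1806 genes were at least 2-fold higher in L-type than in nodal roots (11.2% of genes) and 1295 were lower (8.03%). Under salt, 767 were higher (4.75%) and 591 lower (3.66%). The genes higher under both treatments were 4.08% of all genes, and those lower under both were 3.14%. The 659 shared higher genes were 36.5% of the control set and 85.9% of the salt set, and the 506 shared lower genes were 39.1% and 85.6%. Most genes past 2-fold under salt were therefore also past it under control, and fewer of those past it under control were past it under salt. Both shares count the same genes, so they follow from the sizes of the sets. A gene short of 2-fold can still differ in the same direction, as Os01g0172600 did with ratios of 2.666 and 0.982. The ratio was the larger under control for 560 of the 659 higher genes and for 405 of the 506 lower genes. The median ratio of the higher genes was 2.04 under control and 1.36 under salt, and that of the lower genes was -2.20 and -1.53. Over all genes the middle 50% of ratios ran from -0.40 to 0.44 under control and from -0.27 to 0.31 under salt. The control L-type library was also the shallowest of the 4. When the counting interval itself had to lie beyond 2-fold, 1188 genes were higher and 709 lower under control, against 340 and 286 under salt. Whether the distance between the root types differed between treatments cannot be tested with 1 library per group.

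**Figure D1:**
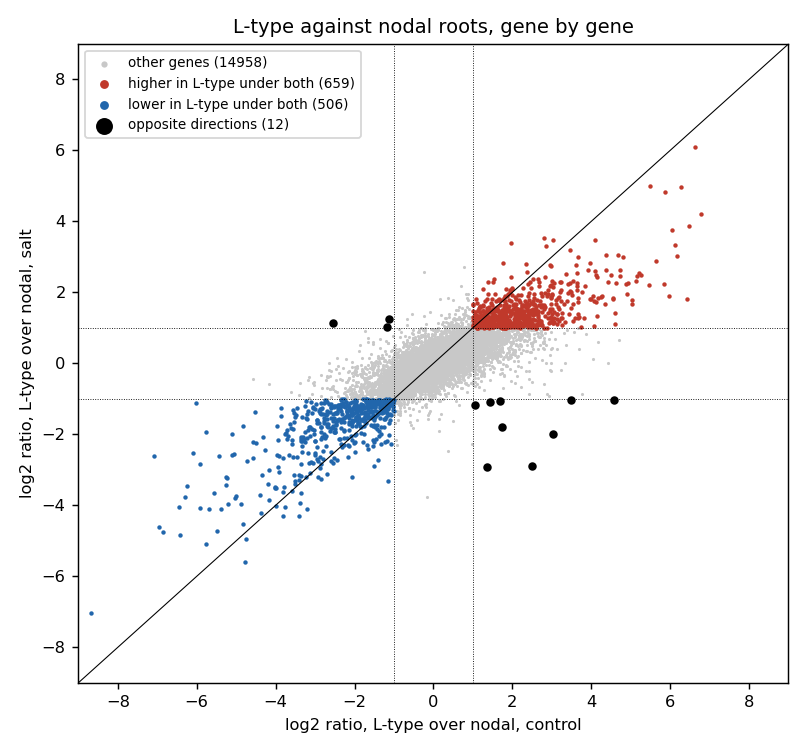
Log2 ratio of L-type over nodal roots for 16135 genes, under control on the horizontal axis and under salt on the vertical axis, with dotted lines at 2-fold and a diagonal of equal ratios. Red and blue points are the 659 and 506 genes past 2-fold in the same direction under both treatments, and most lie on the side of the diagonal where the control ratio is the larger; 12 black points lie in opposite directions.

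To test root type over the whole table, limma was fitted to all 6 libraries with root type and treatment as additive terms. Its error is how far the root type differences vary between control and salt, with 2 residual degrees of freedom, and not a spread between replicates. For each gene limma draws that error toward a trend over all genes, which weighs as 4.21 prior degrees of freedom. The SE and adjusted p of a gene therefore do not rest on its own values alone. Of 21057 genes tested, 1485 were higher in L-type roots (7.05%) and 1167 were lower (5.54%) at a Benjamini-Hochberg adjusted p under 0.05. Counts of called list members below are to be read beside these shares, and no list was tested as a set. All lists, not only those added later, were chosen with earlier results of these data known, so their counts are not independent of these data. Of the 659 higher genes 593 were called, and of the 506 lower genes 404, which is no separate support because both rest on the same libraries. The calls depended on the control nodal library. Without it 1 gene remained higher and 0 lower, with 1777 and 1049 at an unadjusted p under 0.05, and of 91 named genes that were called, Os07g0635200 alone kept its call. Without the control L-type library 337 and 133 were called, and without the salt nodal library 598 and 202. No named call reversed its direction in any of these fits. In the authors' deposited table, 39 genes were called different between L-type and nodal roots under control and 6 under salt. Of the genes named below, that table calls YSL15, Os07g0635200 and Os11g0170900 under control Os06g0169001 and Os11g0306400 under salt, and Os09g0323700 under both.

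Genes of the secondary cell wall, the thickened layer of vessels and fibres, were lower in L-type roots. The list was chosen with earlier results of these data known. Of its 7 genes 4 could be named and measured, and all 4 were lower under both treatments, against 3.14% of all measured genes. Their median ratio was -2.60 against 0.01 for all genes. CESA4, CESA7 and CESA9 are the cellulose synthase subunits of the secondary wall in rice. For CESA4 (Os01g0750300, chromosome 1, 31422946 to 31428670), nodal roots gave 2281 scaled fragments under control and 1785 under salt, L-type roots 317 and 464, and S-type roots 46.3 and 60.3. Its ratio was -2.84 (-3.04 to -2.66) under control and -1.94 (-2.09 to -1.80) under salt, and limma gave -2.39 (SE 0.23, adjusted p = 0.0145). CESA7 (Os10g0467800, chromosome 10, 17262014 to 17266561) had 2154 and 1469 in nodal against 266 and 396 in L-type roots (limma -2.45, SE 0.26, adjusted p = 0.0145). CESA9 (Os09g0422500, chromosome 9, 15281320 to 15285893) had 1817 and 1359 against 175 and 309 (limma -2.75, SE 0.29, adjusted p = 0.0145). For all 3 subunits nodal roots had the lower value under salt, and L-type roots had the higher value under salt.

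BC1 (Os03g0416200, chromosome 3, 17260407 to 17266217), the COBRA-like protein behind the brittle culm phenotype, differed more than the synthases did. It had 796 scaled fragments in control and 440.3 in salt nodal roots, 13.8 and 12 in L-type roots, and 0 in both S-type libraries. Control nodal roots were 57.7-fold and salt nodal roots 36.8-fold above L-type roots (limma -5.42, SE 0.38, adjusted p = 0.0104). By its smaller ratio of the 2 treatments, BC1 was among the 5 lower genes that differed most.

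Primary wall cellulose synthases, which build the wall of growing cells, had smaller ratios. Of 6 measured, 0 were past 2-fold under both treatments, the median ratio was -0.62, and limma and edgeR each called 1, against 3 called by DESeq2. At an unadjusted limma p under 0.05 there were 5. The limma call was CESA3 (limma -1.08, SE 0.23, adjusted p = 0.0366). Its values were 8258 and 7360 in nodal and 2873 and 4769 in L-type roots. CESA1 had a limma difference of -0.70 (adjusted p = 0.0700) and CESA8 of -0.68 (adjusted p = 0.0542). Expansins loosen walls, and of 9 measured 4 were called lower and 0 higher, against 5.54% and 7.05% of all genes tested. The median ratio of the expansins was -0.66. EXPA4 (Os05g0477600), at 307 and 291 in nodal against 134 and 127 in L-type roots, had a ratio of -1.19 under each treatment (limma -1.19, SE 0.16, adjusted p = 0.0179). EXPB6 had 1394 and 1284 against 472 and 648 (limma -1.27, SE 0.24, adjusted p = 0.0293). EXPB2 and EXPA2 were at about the same level in both root types, with limma differences of -0.08 (adjusted p = 0.787) and -0.01 (adjusted p = 0.973). EXPB5, from a list added after the values were seen, had 87.8 and 52.2 in nodal against 22.6 and 18.4 in L-type roots.

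The measured lignin and phenylpropanoid genes were not all lower in L-type roots, unlike the secondary wall synthases. Of 13 genes on the list 7 could be named and 5 were measured. The PAL genes and C4H1, of the first steps, could not be named. Among 5 measured lignin and phenylpropanoid genes, CASP1 was called higher and 4CL3 lower, against 7.05% and 5.54% of all genes tested. The median ratio of the 5 was 0.11. CASP1 (Os04g0684300, chromosome 4, 34950445 to 34951781), a membrane protein that places the Casparian strip of the endodermis, held 237 and 247 scaled fragments in nodal and 594 and 544 in L-type roots. It was 2.5-fold higher under control and 2.2-fold under salt (limma 1.23, SE 0.13, adjusted p = 0.0145). 4CL3, which activates cinnamic acids for lignin and other phenylpropanoids, had 2394 and 1268 in nodal against 1104 and 875 in L-type roots (limma -0.83, SE 0.20, adjusted p = 0.0451). CAD2 and COMT1, of later steps, had limma differences of 0.10 (adjusted p = 0.706) and -0.62 (adjusted p = 0.128). On a barrier and wall list added after the values were seen, the median ratio was -1.32. Of 5 tested 2 were called lower and 0 higher, against 5.54% and 7.05% of all genes. The 2 called were EXPB5 and BGLU30. The beta-glucosidase BGLU30 (Os09g0491100, chromosome 9, 18905351 to 18908421) had 593 and 344 in nodal against 8.77 and 46.9 in L-type roots (limma -4.39, SE 0.73, adjusted p = 0.0238).

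Both root hair genes that could be named, of 5 on the list, were lower in L-type roots under both treatments, against 3.14% of all measured genes. CSLD1 (Os10g0578200, chromosome 10, 23061537 to 23071805), a cellulose-synthase-like protein needed for hair growth, had 304 and 369 scaled fragments in nodal and 42.6 and 66.2 in L-type roots. Nodal roots were 7.14-fold higher under control and 5.57-fold under salt (limma -2.64, SE 0.18, adjusted p = 0.0104). EXPA17 (Os06g0108600, chromosome 6, 511889 to 512791), an expansin of elongating hairs, had 97.3 and 131 in nodal against 12.5 and 12.9 in L-type roots (limma -3.06, SE 0.55, adjusted p = 0.0264). For both genes the salt library was above the control library in nodal and in L-type roots alike. S-type roots held 108 and 132 scaled fragments of CSLD1 but 0 and 2.70 of EXPA17.

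Genes of dividing cells were at similar values in the libraries of both root types. Of 8 measured cell cycle genes, 0 were past 2-fold and 0 were called by limma, edgeR or DESeq2, with 0 at an unadjusted limma p under 0.05 and a median ratio of 0.09. For 5 of the 8 the limma difference was at most 0.1 in either direction. The mitotic cyclin CYCB1;1 had 707 and 697 in nodal against 856 and 805 in L-type roots (limma 0.24, SE 0.15, adjusted p = 0.333). The replication factor MCM2 had 732 and 688 against 742 and 781 (limma 0.10, SE 0.13, adjusted p = 0.646). In S-type roots the values were lower, at 259 and 329 for CYCB1;1 and 231 and 260.2 for MCM2. The root patterning genes SHR1 and SCR1, which specify the ground tissue, had limma differences of 0.55 (adjusted p = 0.122) and 0.42 (adjusted p = 0.166), and of the 5 tested on their list 0 were called by limma, edgeR or DESeq2, with 1 at an unadjusted limma p under 0.05.

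**Figure D2:**
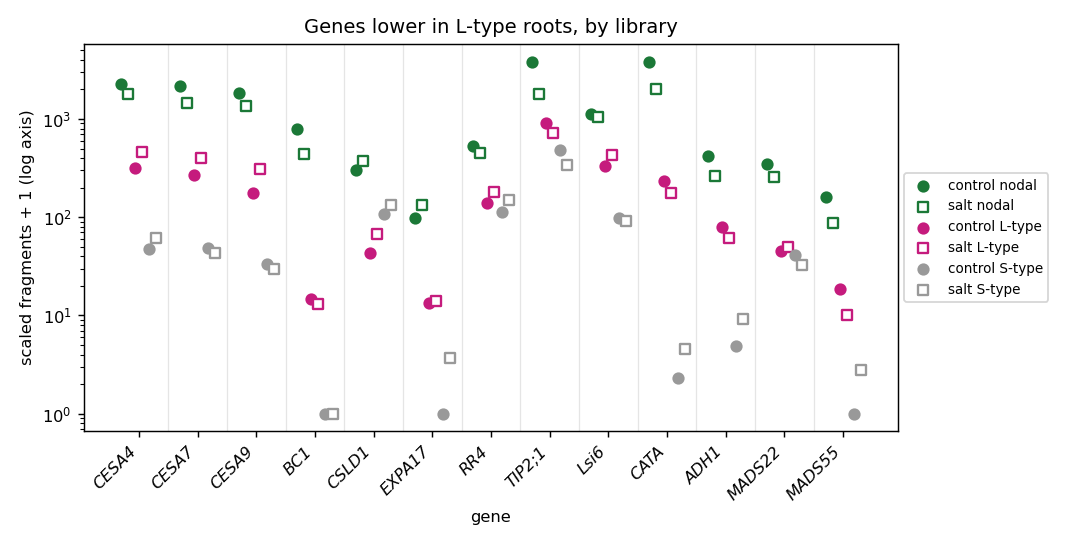
Scaled fragments plus 1, on a log axis, in each of the 6 libraries for 13 genes lower in L-type than in nodal roots under both treatments. Each point is 1 library, filled for control and open for salt, and BC1 is at 0 in both S-type libraries. The genes were chosen from these libraries as at least 2-fold lower under both treatments. The gap between nodal and L-type points within a treatment follows from that choice.

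Several hormone response genes were lower in L-type roots. Type-A response regulators are switched on by cytokinin and dampen its signal, and all 6 named ones were measured. Of these, 3 were lower under both treatments, and the median ratio was -1.30. By limma 4 were called lower and 0 higher, against 5.54% and 7.05% of all genes tested. The cytokinin list held 8 genes, and RR3 and CKX4 on it could not be named and are not in these counts. Several models carry Os01g0940000, the identifier listed for CKX4. A model of it was higher in L-type roots, with ratios of 1.945 under control and 2.066 under salt. RR4 (Os01g0952500, chromosome 1, 41948951 to 41952388) had 531 and 450 scaled fragments in nodal and 138 and 178 in L-type roots (limma -1.64, SE 0.20, adjusted p = 0.0154). RR1 (Os04g0442300, chromosome 4, 22017877 to 22027680) had 61.7 and 46.4 against 3.76 and 12 (limma -2.80, SE 0.55, adjusted p = 0.0306), the control L-type value resting on 3 fragments. RR10 had 135 and 126 against 46.4 and 57.9 (limma -1.32, SE 0.21, adjusted p = 0.0207). Its S-type values of 204 and 287 were above those of nodal roots, whereas RR1 and RR4 were at 2.57 and 112 in control S-type roots.

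Auxin genes gave 3 calls among 8 measured, all lower, against 5.54% of all genes tested. Their median ratio was -0.66. The efflux carrier PIN1a had 578 and 469 in nodal against 238 and 299 in L-type roots (limma -0.96, SE 0.19, adjusted p = 0.0301). PIN2, which carries auxin away from the root tip, had a limma difference of -0.67 (adjusted p = 0.0375), and IAA11, an early auxin response repressor, had -1.04 (adjusted p = 0.0207). PIN9 was past 2-fold under both treatments, at 29.5 and 52.2 against 2.51 and 12, but was not called (limma -2.58, SE 1.09, adjusted p = 0.163). ILL3 (Os03g0836800, chromosome 3, 35160391 to 35167916), of the family of hydrolases that release auxin from amino acid conjugates, was named after its values were seen. It had 736 and 236 in nodal, 7.52 and 7.36 in L-type roots and 0 in both S-type libraries (limma -5.63, SE 0.53, adjusted p = 0.0145).

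The gibberellin list was also added after the values were seen. Of its 5 tested genes 2 were called higher and 1 lower, against 7.05% and 5.54% of all genes tested. KAO, an oxidase of gibberellin synthesis, had 12.2 and 9.12 in nodal against 66.4 and 29.4 in L-type roots (limma 1.97, SE 0.45, adjusted p = 0.0421), and the receptor GID1 had 553 and 801 against 1277 and 1200 (limma 0.89, SE 0.19, adjusted p = 0.0350). GA20ox2, a later synthesis step, had 20.9 and 11.6 against 2.51 and 0 and stayed under the minimum of 50 (limma -3.15, SE 0.67, adjusted p = 0.0359). The list therefore moved in both directions.

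MADS-box factors were also found on both sides. This list too was added after the values were seen. Of 7 measured, 2 were higher and 2 lower under both treatments, against 4.08% and 3.14% of all measured genes. MADS56 (Os10g0536100, chromosome 10, 20863187 to 20873804), related to the flowering regulator SOC1, had 45.2 and 26.5 scaled fragments in nodal, 321 and 321 in L-type and 598 and 459 in S-type roots. It was 7.10-fold higher in L-type roots under control and 12.1-fold under salt (limma 3.17, SE 0.21, adjusted p = 0.0104). MADS50 (Os03g0122600), of the same subfamily, had 90.4 and 87.9 against 212 and 194 (limma 1.17, SE 0.17, adjusted p = 0.0188). MADS22 (Os02g0761000, chromosome 2, 32038730 to 32044845), related to the flowering repressor SVP, had 348 and 254 in nodal against 43.9 and 48.7 in L-type roots (limma -2.66, SE 0.23, adjusted p = 0.0145). MADS55 (Os06g0217300, chromosome 6, 5952599 to 5963355), its close relative, had 161 and 85.4 against 17.5 and 9.20 (limma -3.11, SE 0.67, adjusted p = 0.0369). MADS47, which is also SVP-related, had 500 and 446 against 437 and 422 and was not called (limma -0.14, adjusted p = 0.532).

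Water channels that differed were mostly lower in L-type roots, and TIP4;1 and the silicon channel Lsi1 were the exceptions. All 17 listed channels could be named and 15 were measured. Of the 15, 4 were lower and 1 higher under both treatments, with a median ratio of -0.72. Of 16 tested 6 were called lower and 2 higher, against 5.54% and 7.05% of all genes. TIP2;1 (Os02g0658100, chromosome 2, 26608375 to 26609819), a channel of the vacuole membrane, had 3840 and 1809 scaled fragments in nodal against 907 and 712 in L-type roots (limma -1.71, SE 0.19, adjusted p = 0.0145). In FPKM it stood at 581 and 267 in nodal roots, among the 5 lower genes with the highest mean in nodal roots. PIP2;4, of the plasma membrane, had 732 and 296 against 206 and 118 (limma -1.58, SE 0.36, adjusted p = 0.0408). The abundant PIP1;1, with 8607 and 6969 against 4813 and 5186, was not called (limma -0.63, SE 0.17, adjusted p = 0.0566). TIP4;1 (Os05g0231700, chromosome 5, 8000547 to 8002989) ran the other way, with 110.3 and 296 in nodal, 517 and 782 in L-type and 918 and 1033 in S-type roots (limma 1.81, SE 0.28, adjusted p = 0.0205).

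Silicon transporters gave differences of both signs. On an added list of silicon, metal and solute transporters, 4 of 6 tested were called higher and 0 lower. The shares over all genes tested were 7.05% and 5.54%. Its median ratio was 0.67, and Lsi2 was the 1 past 2-fold under both treatments. Lsi1 and Lsi2 take up silicon into the root and pass it on to the stele. Lsi2 (Os03g0107300, chromosome 3, 430697 to 432874) had 2159 and 4187 scaled fragments in nodal, 7772 and 11810 in L-type and 21100 and 23760 in S-type roots (limma 1.67, SE 0.23, adjusted p = 0.0179). Lsi1 (Os02g0745100, chromosome 2, 31266328 to 31269935) had 3179 and 5662 in nodal, 8976 and 11030 in L-type and 21530 and 22200 in S-type roots (limma 1.23, SE 0.23, adjusted p = 0.0296), with a salt ratio of 0.96 that fell just short of 2-fold. For both, the salt value exceeded the control value in each root type. Lsi6 (Os06g0228200, chromosome 6, 6648387 to 6653002), the homologue known for unloading silicon from the xylem of leaves, had 1115 and 1035 in nodal against 331 and 431 in L-type roots (limma -1.51, SE 0.17, adjusted p = 0.0145).

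Sodium and potassium transporters differed in both directions. Of 6 measured, HKT2;1 alone was past 2-fold under both treatments, and of 7 tested 1 was called lower and 2 higher. Over all genes tested 5.54% were called lower and 7.05% higher. HKT2;1 (Os06g0701700, chromosome 6, 29538938 to 29541203), which takes up sodium when potassium is short, had 76.5 and 36.5 scaled fragments in nodal against 6.26 and 0.920 in L-type roots (limma -3.85, SE 0.65, adjusted p = 0.0248). The salt L-type value is 1 fragment, so the salt ratio of -4.29 had an interval of -10.65 to -2.76. HKT1;5, which withdraws sodium from the xylem, had 54.7 and 19.1 in nodal against 17.5 and 23.0 in L-type roots and was not called (limma -0.67, adjusted p = 0.439). HAK1, a high-affinity potassium transporter, had 651 and 661 against 911 and 979 (limma 0.52, SE 0.12, adjusted p = 0.0432), and the call was lost with edgeR and DESeq2. AKT1, the inward potassium channel, had 655 and 229 against 591 and 410.2 (limma 0.34, adjusted p = 0.355).

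The nitrogen and phosphate list had a median ratio of 0.15. Of 11 genes tested on it 1 was called, against 7.05% called higher and 5.54% lower over all genes. That call, AMT1;3, is no result about the list as a whole. This ammonium transporter (Os02g0620600, chromosome 2, 24690869 to 24692736) had 499 and 425 scaled fragments in nodal against 62.6 and 193 in L-type roots (limma -2.05, SE 0.39, adjusted p = 0.0295). AMT1;1 had 376 and 358 against 129 and 319 (limma -0.85, adjusted p = 0.118), and the phosphate transporter PT8 had 644 and 698 against 1407 and 846 (limma 0.70, adjusted p = 0.242). For these 3 genes the root types lay closer together under salt than under control.

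Defence and jasmonate genes were higher in L-type roots, with larger ratios under control than under salt. This list was put together after the values were seen, so its counts are not independent of these data. Of 16 measured members 6 were higher and 0 lower under both treatments. Of 17 tested 11 were called higher and 0 lower, against 7.05% and 5.54% of all genes. The median ratio was 2.12 under control and 0.82 under salt. WRKY76 (Os09g0417600, chromosome 9, 14976197 to 14977729), a pathogen-induced transcription factor, had 21.7 and 29.0 scaled fragments in nodal against 406 and 108 in L-type roots (limma 3.01, SE 0.54, adjusted p = 0.0267). Its neighbour WRKY62 (Os09g0417800, chromosome 9, 14992849 to 14994888) had 9.56 and 11.6 against 175 and 41.4 (limma 2.90, SE 0.53, adjusted p = 0.0272). NH1 (Os01g0194300, chromosome 1, 5060583 to 5065252), the rice NPR1 that relays salicylic acid signals, had 165 and 224 against 834 and 564 (limma 1.83, SE 0.25, adjusted p = 0.0180). In each of the 3, the control L-type value was the highest of the 4.

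Among JAZ repressors, which jasmonate induces and which feed back on its signal, TIFY11A and TIFY11C also had their highest value of the 4 in control L-type roots. TIFY11A (Os03g0180800) had 301 and 219 in nodal against 1339 and 484 in L-type roots (limma 1.64, SE 0.40, adjusted p = 0.0488). TIFY11C, at 348 and 245 against 1631 and 398, was not called (limma 1.46, SE 0.56, adjusted p = 0.135). The lipoxygenase CM-LOX1 (Os08g0508800) was nearly absent from nodal roots, at 1.74 and 0, and had 104 and 4.60 in L-type roots, the last resting on 5 fragments (limma 3.88, SE 0.95, adjusted p = 0.0492). OPR7 and JAR1, which make jasmonate and its active conjugate, had limma differences of 0.19 (adjusted p = 0.569) and 0.15 (adjusted p = 0.834). Of 12 genes for diterpenoid phytoalexins, the antimicrobial products of this response in rice, 0 reached 50 scaled fragments in any of the 4 libraries. S-type roots had 417 and 478 scaled fragments of WRKY76 and 174 and 68.4 of WRKY62.

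**Figure D3:**
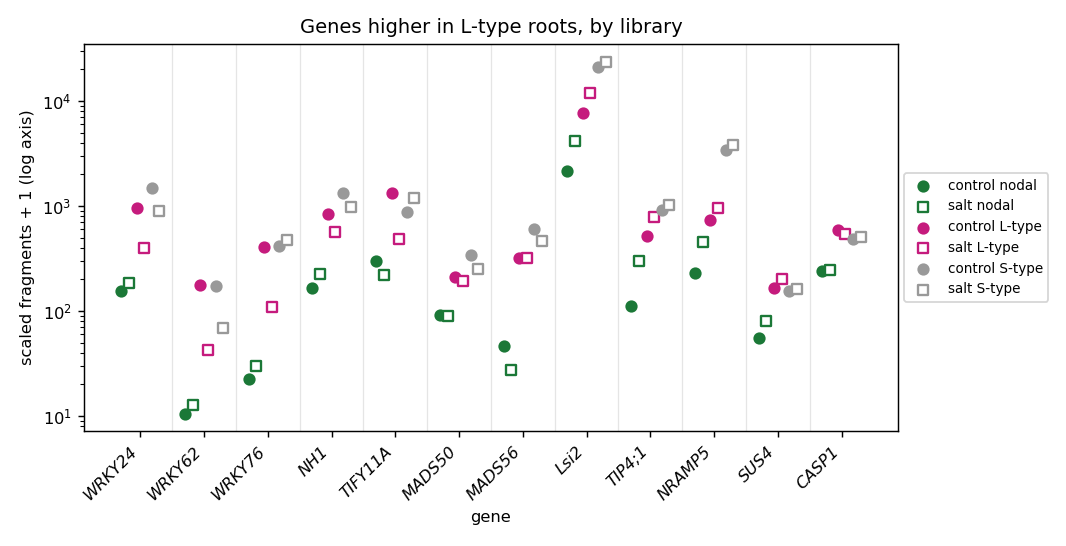
Scaled fragments plus 1, on a log axis, in each of the 6 libraries for 12 genes higher in L-type than in nodal roots under both treatments. Each point is 1 library, filled for control and open for salt; for the WRKY genes and NH1 the control L-type point lies above the salt L-type point, while the 2 points nearly coincide for MADS56.

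Stress genes of the abscisic acid and dehydration list went in both directions, with a median ratio of 0.47. Of 12 tested 2 were called higher and 2 lower, against 7.05% and 5.54% of all genes. NAC6 (Os01g0884300), a stress-induced transcription factor, had 402 and 488 scaled fragments in nodal against 1947 and 941 in L-type roots (limma 1.61, SE 0.32, adjusted p = 0.0312). DREB1A had 267 and 386 against 688 and 621 (limma 1.02, SE 0.18, adjusted p = 0.0265). P5CS2 (Os01g0848200, chromosome 1, 36430978 to 36442944), a proline synthesis enzyme, had 333 and 623 in nodal, 48.9 and 144 in L-type and 2.57 and 33.3 in S-type roots (limma -2.42, SE 0.53, adjusted p = 0.0378). SalT, a lectin first found through its response to salt, had 111 and 131 against 41.3 and 48.7, a ratio of -1.41 under each treatment (limma -1.41, SE 0.31, adjusted p = 0.0383). P5CS1, the other P5CS gene, had 1129 and 1207 against 1199 and 1148 (limma 0.01, adjusted p = 0.981). P5CS2 was higher under salt in both root types, and the gap between root types was present with and without salt.

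Antioxidant enzymes gave 3 calls among 8 tested, all lower, against 5.54% of all genes tested. The median ratio of the list was -0.64. CATA (Os02g0115700, chromosome 2, 825041 to 827640), a catalase, had 3797 and 2008 scaled fragments in nodal, 233 and 177 in L-type and 1.29 and 3.60 in S-type roots. Nodal roots were 16.3-fold higher under control and 11.4-fold under salt (limma -3.76, SE 0.43, adjusted p = 0.0149). CATB, a second catalase gene, had 2885 and 3877 against 5076 and 5346 (limma 0.64, SE 0.16, adjusted p = 0.0539), so the 2 catalases differed in sign, the latter without passing the threshold. APX2 was called lower (limma -0.84, SE 0.17, adjusted p = 0.0342) and APX1 was not (limma -0.34, adjusted p = 0.185).

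In sugar metabolism the differences again ran both ways. Of 5 genes tested, 1 was called higher and 2 lower, against 7.05% and 5.54% of all genes. SUS4, a sucrose synthase, had 54.7 and 78.8 scaled fragments in nodal against 163 and 201 in L-type roots (limma 1.45, SE 0.19, adjusted p = 0.0164), whereas the abundant SUS2 had 8511 and 9723 against 9130 and 12300 (limma 0.22, adjusted p = 0.451). ADH1 (Os11g0210300, chromosome 11, 5712671 to 5716288), the alcohol dehydrogenase of fermentation, had 416 and 264 against 78.9 and 59.8 (limma -2.26, SE 0.41, adjusted p = 0.0267), and PDC2, the step before it, had 1461 and 1353 against 907 and 938 (limma -0.61, SE 0.12, adjusted p = 0.0320). On a list of sugar transporters added later, 1 of 3 tested was called, the sugar exporter SWEET4, which had 91.2 and 82.1 against 31.3 and 27.6 (limma -1.53, SE 0.36, adjusted p = 0.0447). Of 3 measured genes tied to aerenchyma, the air spaces of the cortex, 0 were called by limma, edgeR or DESeq2, with 1 at an unadjusted limma p under 0.05.

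Among the lists with at least 3 measured members, iron uptake had the widest gap between its control and salt medians. Rice takes up iron both as free iron and bound to phytosiderophores, which NAS and NAAT enzymes help to make and YSL15 brings back into the root. Of 16 genes 12 could be named, 10 were measured and 2, YSL15 and NRAMP5, were higher in L-type roots under both treatments. The median ratio was 1.52 under control and -0.20 under salt. NRAMP5 (Os07g0257200, chromosome 7, 8871632 to 8879127), which takes up manganese and cadmium, had 230.2 and 450.3 scaled fragments in nodal, 743 and 961 in L-type and 3391 and 3771 in S-type roots (limma 1.39, SE 0.21, adjusted p = 0.0193). YSL15 (Os02g0650300, chromosome 2, 26200020 to 26204980) had 95.6 and 289 against 1709 and 726, 17.9-fold higher under control and 2.51-fold under salt, but was not called (limma 2.73, SE 0.80, adjusted p = 0.0739). YSL16, a transporter of metals bound to nicotianamine, had 129 and 362 against 441 and 699 (limma 1.35, SE 0.29, adjusted p = 0.0372), which with NRAMP5 made 2 of 12 tested called higher and 0 lower. The shares over all genes tested were 7.05% higher and 5.54% lower.

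NAS2 and NAAT1 had opposite directions under control and salt. NAS2 (Os03g0307200, chromosome 3, 10926323 to 10927978) had 535 scaled fragments in control nodal and 1368 in control L-type roots, but 804 in salt nodal and 106 in salt L-type roots. Its ratio was 1.35 (1.21 to 1.5) under control and -2.92 (-3.22 to -2.65) under salt. NAAT1 (Os02g0306401, chromosome 2, 11997126 to 12002625) had 472 and 399 in nodal against 987 and 175 in L-type roots, with ratios of 1.06 (0.91 to 1.23) and -1.19 (-1.44 to -0.95). In both genes the salt L-type value was the lowest of the 4 libraries, and the counting intervals of the 2 treatments did not overlap. S-type roots had 2312 scaled fragments of NAS2 under control and 45.02 under salt, and 1772 and 135.1 of NAAT1. For both genes the S-type value, like the L-type value, was above the nodal value under control and below it under salt. Both contrasts share the nodal libraries, and S-type roots were not tested. YSL2, a transporter of metal complexes with nicotianamine, had 74.7 and 4.98 in nodal against 898 and 10.1 in L-type roots, and under salt its interval of -0.54 to 2.74 included no difference. NAS3 had 63.4 and 124 against 52.6 and 109, so it was higher under salt in both root types and nearly level between them. The additive model gave NAS2 a difference of -0.78 (SE 1.29, adjusted p = 0.719), since the treatments cancel in it.

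**Figure D4:**
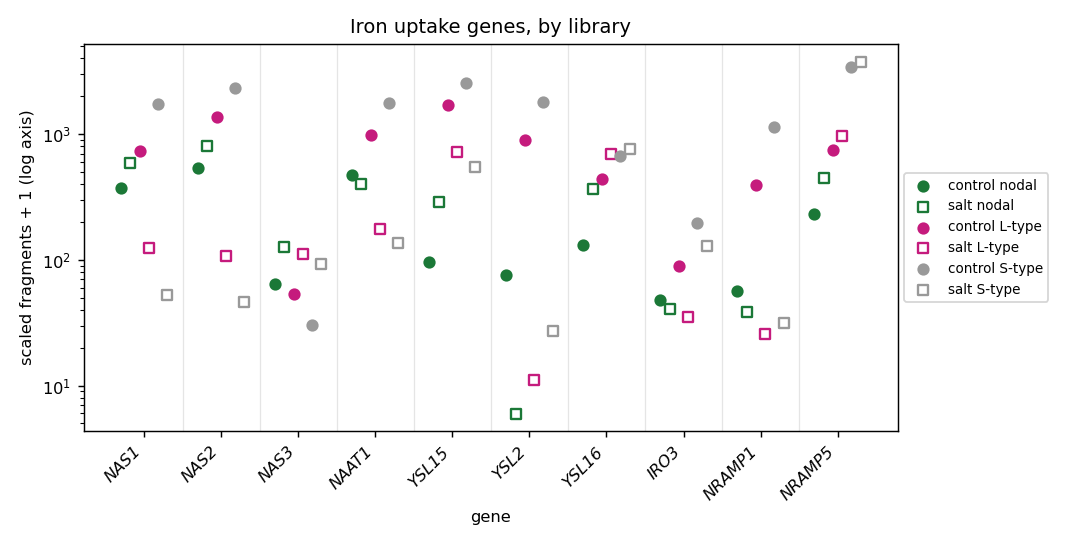
Scaled fragments plus 1, on a log axis, in each of the 6 libraries for the 10 measured iron uptake genes. Each point is 1 library, filled for control and open for salt; for NAS1, NAS2 and NAAT1 the L-type points lie above the nodal points under control and below them under salt, whereas for NRAMP5 and YSL16 both L-type points lie above both nodal points.

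In all, 12 genes were past 2-fold in opposite directions under the 2 treatments. Of these, 9 were higher in L-type roots under control and lower under salt, and 3 the reverse, 0.06% and 0.02% of measured genes. Apart from NAS2 and NAAT1, all of them stayed under 200 scaled fragments in each of the 4 libraries. Os12g0443000 had 22.6 in control nodal, 132 in control L-type, 13.3 in salt nodal and 0.920 in salt L-type roots. Os03g0289800 had 17.4, 150.3, 17.4 and 3.68 in the same order. Os07g0677600 ran the other way, with 77.3, 12.5, 17.4 and 39.6. With the counting interval beyond 2-fold in both treatments, 2 genes of the first kind and 0 of the second remained.

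Genes were also ranked by the smaller ratio of the 2 treatments, and those without a name that could be checked are given by identifier. Among the higher genes, Os07g0635200 (chromosome 7, 26367084 to 26369068) had 0 and 1.66 scaled fragments in nodal, 99.0 and 179 in L-type and 1150 and 1456 in S-type roots (limma 6.36, SE 0.30, adjusted p = 0.00756). Os06g0169001 (chromosome 6, 3474629 to 3476370) had 36.5 and 78.8 against 2186 and 2265, and 5885 and 13560 in S-type roots (limma 5.35, SE 0.28, adjusted p = 0.00756). Os02g0583700 (chromosome 2, 22509550 to 22510620) had 6.08 and 9.12 against 777 and 187, and 39830 and 17600 in S-type roots (limma 5.49, SE 0.54, adjusted p = 0.0145). Os07g0418600 and Os01g0355250, with ratios of 5.50 and 6.29 under control and 5.01 and 4.96 under salt, complete the first 5. In 4 of these 5 genes both S-type values lay above both L-type values, while in Os07g0418600 the lateral libraries held between 47.6 and 123.

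Among the lower genes, Os10g0334500 (chromosome 10, 9565919 to 9618178) had 409 and 251 scaled fragments in nodal roots, 0 and 0.920 in L-type and 0 in both S-type roots (limma -7.86, SE 0.59, adjusted p = 0.0127). Taking the floor of 3 fragments for the empty library, control nodal roots were at least 109-fold higher. Os11g0306400 (chromosome 11, 11591738 to 11596168) had 60.8 and 47.3 in nodal and 1.25 and 0 in L-type roots, and Os11g0170900 (chromosome 11, 3463917 to 3467995) had 116 and 25.7 against 0 and 0. Os11g0170900 was at least 30.7-fold higher in nodal roots under control and at least 9.32-fold under salt. With BC1 and ILL3 these were the 5 lower genes ranked by the smaller ratio of the 2 treatments, and 4 of the 5 had 0 fragments in both S-type libraries.

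Ranked by FPKM in the root type where they were higher, the members included some of the more abundant transcripts of these roots. Os11g0704500 (chromosome 11, 28827746 to 28828439) stood at 1658 and 2253 FPKM in nodal and 6459 and 4508 in L-type roots (limma 1.45, SE 0.30, adjusted p = 0.0338). Os02g0662000 (chromosome 2, 26804988 to 26805820) stood at 3102 and 2008 FPKM in nodal, 922 and 989 in L-type and 88.7 and 97.6 in S-type roots (limma -1.40, SE 0.22, adjusted p = 0.0205). Os10g0552700 and Os10g0552800, close together on chromosome 10, were both lower in L-type roots, with 657 and 297 FPKM against 96.9 and 68.3 for the first and 1132 and 739 against 465 and 301 for the second. The median FPKM of the 659 higher genes was 6.04 and 7.6 in nodal roots, 29.1 and 20.9 in L-type roots and 46.1 and 43.3 in S-type roots. That of the 506 lower genes was 16.9 and 12.5 in nodal, 3.58 and 3.84 in L-type and 1.37 and 1.53 in S-type roots. Comparisons of S-type and L-type roots with nodal roots share the nodal libraries, so the S-type values are set beside the others and S-type roots are not tested. The S-type libraries do enter the error of the limma fit. Without them, on 1 residual degree of freedom, 1306 genes were called higher and 1115 lower in L-type roots. Of these, 1138 and 928 were also called with all 6 libraries.

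**Figure D5:**
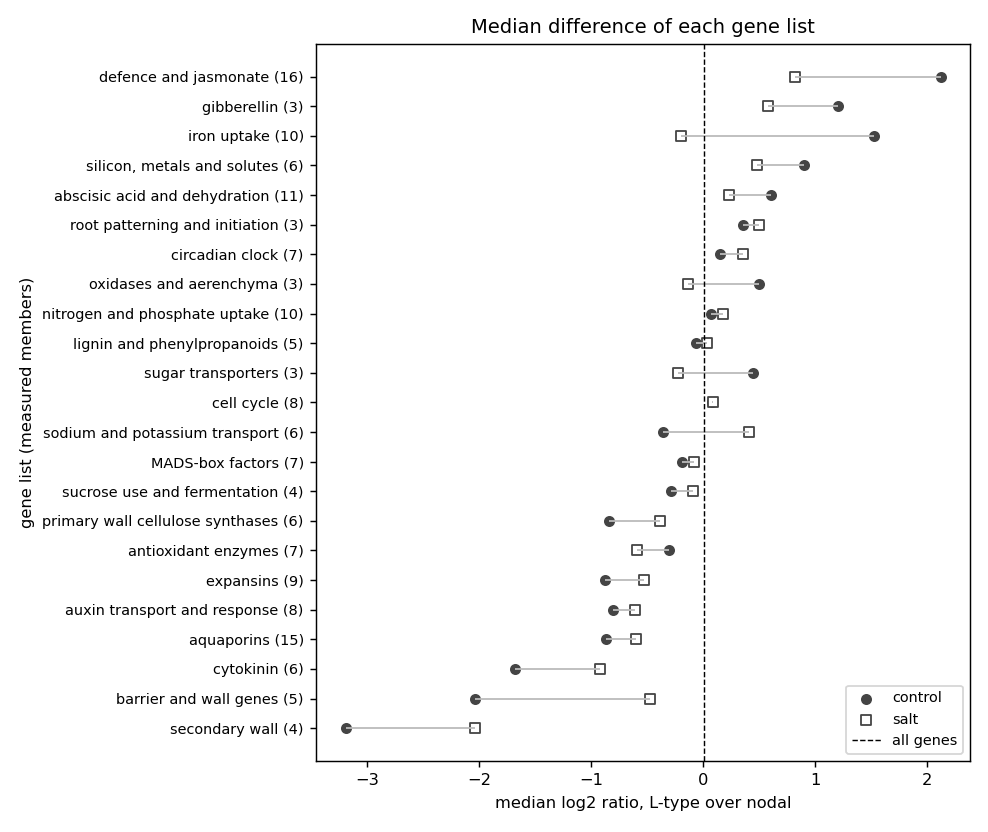
Median log2 ratio of L-type over nodal roots for each gene list with at least 3 measured members, under control (filled circles) and salt (open squares), with the number measured in parentheses and a dashed line at the median of all genes. The secondary wall list lies lowest at -3.19 and -2.04, defence and jasmonate lie highest under control at 2.12, and iron uptake crosses from 1.52 to -0.20.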

How the data were processed

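Messenger RNA of nodal, S-type and L-type roots was sequenced from strand-specific libraries, per the labels' protocols. The submitters' processing notes name Cuffdiff 2.2.1, Cufflinks 2.2.1, TopHat2 2.0.11, Bowtie and Trimmomatic 0.32, and the genome build IRGSP-1.0. Settings are not given in the sources used here, nor whether counting used strand. The count table deposited by the authors holds a signal: fragments per gene times 1 factor per library, and 99.9% to 99.96% of values were whole multiples of that factor within 0.02 fragments. The authors also deposited FPKM values and the p-values and q-values of Cuffdiff for each pair of libraries. Of the measured models, 28.4% overlap another model (31.4% of the higher and 33.2% of the lower genes, among them CESA7, CESA9, BC1, CESA8, EXPA2, EXPA4, EXPB5, EXPB6, 4CL3, CSLD1, RR1, RR10, PIN1a, PIN2, PIP1;1, PIP2;4, TIP2;1, TIP4;1, AKT1, HAK1, AMT1;1, AMT1;3, PT8, NRAMP5, NAC6, DREB1A, P5CS2, CATA, SUS2, SUS4, PDC2, GA20ox2, GID1, MADS50, BGLU30, Os07g0635200, Os10g0334500, Os11g0704500 and Os03g0289800), and their counts may be split between models.

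From these, fragments were recovered and limma 3.58.1 (R 4.3.3) was run (trended variance; values TMM-scaled, 1 added, log2 taken) for genes kept by filterByExpr by root type. edgeR 4.0.16 and DESeq2 1.42.0 on recovered fragments, other scalings, filters, pseudocounts and left-out libraries were alternatives. Pairs of libraries have no test.

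The files pair no identifier with a symbol. Recalled pairs were kept when a RefSeq table of another assembly (ASM3414082v1) placed the symbol on the same chromosome, at the offset of neighbouring genes within 0.1 Mb and with a length within 3-fold; these limits were set with the files at hand. Of 197 listed symbols 148 passed, and of 88 added later 69. Members, lists and symbols were chosen with earlier results of these data known. The lists cover secondary and primary wall, expansins, lignin, cell cycle, root patterning, auxin, cytokinin, aquaporins, sodium and potassium, nitrogen and phosphate, iron, dehydration, antioxidants, aerenchyma, sucrose and fermentation, root hairs and shoot markers, with defence, phytoalexins, gibberellin, MADS-box factors, sugar transporters, metals, barriers and the clock added. Named genes were up to 4 per list with the largest ratio in the treatment where it was smaller and up to 3 others, the 5 largest and 5 most abundant per direction, and genes of opposite direction; further names were chosen after their values were seen. Coordinates are 1-based on IRGSP-1.0.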

Additional observations from a re-analysis of the deposited data

Results flagged for a closer look

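The following 12 genes were past 2-fold in opposite directions under the 2 treatments, so that each treatment's pair of libraries moved the other way. With 1 library per group the difference was not tested. Values are the salt ratio minus the control ratio on the log2 scale. For the 9 genes that were higher in L-type roots under control and lower under salt, NAS2 had -4.27, NAAT1 -2.25, Os01g0677500 -5.60, Os12g0443000 -5.38, Os03g0289800 -5.02, Os01g0868000 -4.51, Os12g0123800 -3.53, Os01g0113300 -2.76 and Os04g0149400 -2.51. For the 3 that ran the other way, Os07g0677600 had 3.67, Os01g0521600 2.37 and Os10g0477600 2.21.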

How the results depend on the processing

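No paired analysis was possible because, for pairing by replicate number, the groups share a single number. Pairing by treatment is the treatment term of the fit, and without that term 1077 genes were higher and 795 lower. The limma counts of 1485 higher and 1167 lower stayed within 1.5 times under every other scaling, filter, pseudocount and test run, from 1077 to 1552 higher and 795 to 1341 lower. With edgeR 4 of the 91 named calls were lost, and with DESeq2 5, HAK1 among them in each. Leaving out 1 library gave 1 to 1842 higher and 0 to 1041 lower. The lone remaining library of a root type is then assumed to vary like the others, on 1 residual degree of freedom. Of 91 named calls, 90 were lost without the control nodal, 55 without the control L-type and 45 without the salt nodal library, and 0 reversed.

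The counts of genes past 2-fold under both treatments depend on the minimum and the threshold. Against 659 higher and 506 lower, a minimum of 10 gave 989 and 964, a minimum of 200 gave 393 and 191, a 4-fold threshold gave 74 and 132, and a counting interval beyond 2-fold gave 285 and 239. The authors' calls in both pairs gave 0 and 1. For opposite directions, 9 and 3 became 30 and 42 with a minimum of 10, 2 and 0 with a minimum of 200, and 2 and 0 with the counting interval. For single treatments, settings chosen after seeing the data gave these counts. With a minimum of 200, 1142 were higher and 573 lower under control, and 428 and 215 under salt. With the counting interval they were 1188, 709, 340 and 286. TMM scaling moved no list median by 0.1 or more.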

Other observations

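Genes of the circadian clock, which would mark a different hour of collection, were examined because the labels give no time of day. Of 7 measured clock genes, 0 were past 2-fold under both treatments, and 0 were called between L-type and nodal roots by limma (4 at an unadjusted p under 0.05) or edgeR and 1 by DESeq2. Their median ratio was 0.28. The morning gene LHY had 630 and 110.3 scaled fragments in control and salt nodal roots and 306 and 67.1 in L-type roots (limma -0.88, SE 0.24, adjusted p = 0.0650). The evening gene PCL1 had 2.61 and 73.8 against 1.25 and 176 (limma 0.28, SE 0.53, adjusted p = 0.757). PRR1 had 268 and 633 against 700.3 and 859 (limma 0.91, SE 0.23, adjusted p = 0.0502). Both LHY and PRR1 thus lay close to the threshold, and the part of collection time in the differences between root types was not tested. In both root types LHY was lower and PCL1 higher in the salt than in the control library. With no hour given, salt and collection time cannot be told apart in any difference between treatments, that of the iron genes included.

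Some members lay beside another member on the chromosome. Of the 659 higher genes, 130 (19.7%) had a neighbouring measured model that was also higher under both treatments, whereas 7.35% of the remaining measured genes had a neighbour that was higher. Of the 506 lower genes, 64 (12.7%) had such a neighbour in the same direction, whereas 5.92% of the remaining genes did. Near-identical neighbours can share reads, and this was not separated here. By chromosome, 2.99% to 5.74% of measured genes were higher and 2.38% to 4.49% lower, with chromosome 10 at the top of both ranges.

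At the threshold itself, Os10g0364900, with ratios of 1.0 and 1.47, and Os01g0102900, with 2.88 and 1.0, lay just inside, and Os12g0443600, with -1.47 and -1.0, and Os12g0444500, with 1.91 and 1.0, just outside. A single gene, Os09g0323700, was called under both treatments in the authors' deposited table. It stood at 5.28 and 6.73 FPKM in control and salt nodal roots and at 0 in both L-type libraries, and it did not reach 50 scaled fragments.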
